A study of Mus musculus with 24 samples.

Results

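This report describes 43 genes of the myeloid lineage in mouse B-cell progenitors, chosen by name, with the window of each gene set as its mm10 gene body and 10 kb on both sides. All 43 matched a gene of the 21631 protein-coding genes of the RefSeq annotation. Their windows held 324 of the 159336 regions that had a deposited peak in any library. Chromatin accessibility was measured by ATAC-seq, in which a transposase inserts adapters into open DNA, in bone marrow cells sorted at 3 stages of B-cell development and labelled as lymphoid progenitors. The 6 groups were Mki67-/- and WT pre-pro-B, Mki67-/- and WT pro-B, and Mki67-/- and WT small pre-B cells, with 4 libraries each. Mki67 codes for Ki-67, a protein found in the nuclei of cycling cells, and the series concerns its part in antigen-receptor gene rearrangement. The age, sex and strain of the mice, the design of the Mki67 allele and the sort gates are not given in the labels.

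Granulocytes, monocytes and macrophages share multipotent bone marrow ancestors with B cells. In the myeloid branch, PU.1 and the C/EBP factors switch on receptors for colony-stimulating factors, then granule proteins, Fc receptors and integrins. In the B branch, EBF1 and PAX5 fix the lineage, and PAX5 is known to repress genes of other lineages, the M-CSF receptor gene Csf1r among them. An ATAC peak marks open DNA and does not measure transcription.

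Each library had its own peak list, of 77044 to 206148 entries, which merged to 54387 to 88946 peaks. The merged lists were longest in the earliest stage, at 82593 ± 7234 peaks in pre-pro-B, then 74591 ± 2977 in pro-B and then 67933 ± 9054 in small pre-B libraries (SD, n = 8 each). Stages were therefore compared on the 40000 strongest peaks of each library, ranked by the authors' −log10 q, and called strong peaks here. Strong peaks were also widest in the earliest stage, with a median width of 742 ± 68.6 bp in pre-pro-B, then 493 ± 29.9 bp in pro-B and then 433 ± 31.1 bp in small pre-B libraries (SD, n = 8 each). 3 libraries stood apart by list length. Mki67-/- pre-pro-B library 4 had 67920 peaks, against 77175 to 88946 in the other pre-pro-B libraries. Mki67-/- small pre-B library 1 had 54387 and WT small pre-B library 1 had 85621, against 63332 to 71346 in the other small pre-B libraries. Read totals were not used here, so the depth is unknown.

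The stage labels were set against defining genes. The start of Pax5 had a strong peak in 0 of 8 pre-pro-B, 8 of 8 pro-B and 8 of 8 small pre-B libraries, and that of Cd79a, a chain of the B-cell receptor, in 0, 8 and 8. The start of Ebf1 was open in 6, 8 and 8 libraries. Other early B-lineage starts varied, with a strong peak in 7, 8 and 8 libraries at Rag1, 1, 8 and 8 at Igll1, and 0, 8 and 3 at Vpreb1. Starts of genes of other lineages varied. That of Ncr1, a receptor of natural killer cells, was open in 8 of 8 pre-pro-B libraries and in none of the pro-B or small pre-B libraries. The start of the T-lineage gene Bcl11b had a strong peak in 2, 0 and 0 libraries, and that of the plasmacytoid dendritic gene Siglech in 8, 6 and 8. Those of the T-lineage gene Cd3e and the erythroid gene Gata1 had no strong peak at any stage. In the deposited lists, which hold weaker peaks too, the Cd3e start had a peak in 8, 0 and 0 libraries and the Bcl11b start in 8, 8 and 2. The Gata1 start had none there either. The start of Mki67 had a peak in all 4 libraries of each of the 6 groups, so the deletion is not read out there. In sorted bulk cells, fewer cells of another type and less open DNA per cell cannot be told apart. No label says that each library is a separate mouse, and 1 mouse may have given libraries at several stages, so every p-value here measures only how far these libraries spread.

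Promoter sequences are shown first for the members whose start had a strong peak in all 8 pre-pro-B libraries and in no later one, then for 2 starts with a strong peak in every library, then for a granule gene whose start never had a strong peak. They are the 250 bases before the annotated start, read in the gene's direction, from RefSeq promoters of GRCm38.p6 (mm10). Capitals mark 3 sets of letters: GAGGAA or its complement TTCCTC (letters of PU.1 sites), TTGCNNAA or TTNNGCAA (C/EBP), and TGTGGT or ACCACA (Runx), and no marked stretch overlaps another. Itgam, the CD11b chain of the phagocyte integrin, lies on the plus strand at chr7:128062390-128062639, and Itgax, the CD11c chain of a related integrin, on the plus strand at chr7:128129300-128129549. Cybb, the catalytic subunit of the phagocyte NADPH oxidase, lies on the minus strand at chrX:9469325-9469574. Cd68, a lysosomal protein of macrophages, lies on the minus strand at chr11:69666171-69666420, and Ly6c2, a surface marker of inflammatory monocytes, on the minus strand at chr15:75111972-75112221. The open starts are Cebpa, a factor needed for granulocyte formation, on the plus strand at chr7:35119043-35119292, and Tlr2, a receptor for bacterial lipoproteins, on the minus strand at chr3:83841609-83841858. The closed one is Mpo, myeloperoxidase of the primary granules, on the plus strand at chr11:87793534-87793783.
Itgam: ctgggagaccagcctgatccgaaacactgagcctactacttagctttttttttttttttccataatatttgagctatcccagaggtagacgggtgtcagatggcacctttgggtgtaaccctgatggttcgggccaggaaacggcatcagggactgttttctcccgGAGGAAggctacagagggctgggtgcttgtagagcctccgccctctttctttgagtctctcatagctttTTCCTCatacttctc
Itgax: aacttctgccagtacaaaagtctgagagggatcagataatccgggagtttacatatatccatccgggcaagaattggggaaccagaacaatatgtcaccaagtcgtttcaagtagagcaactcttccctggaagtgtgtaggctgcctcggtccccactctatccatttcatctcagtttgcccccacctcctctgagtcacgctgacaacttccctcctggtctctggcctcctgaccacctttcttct
Cybb: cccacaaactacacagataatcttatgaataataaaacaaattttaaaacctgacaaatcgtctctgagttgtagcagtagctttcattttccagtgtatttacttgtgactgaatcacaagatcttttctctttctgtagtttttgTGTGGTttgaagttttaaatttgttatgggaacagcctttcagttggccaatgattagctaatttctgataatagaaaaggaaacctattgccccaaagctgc
Cd68: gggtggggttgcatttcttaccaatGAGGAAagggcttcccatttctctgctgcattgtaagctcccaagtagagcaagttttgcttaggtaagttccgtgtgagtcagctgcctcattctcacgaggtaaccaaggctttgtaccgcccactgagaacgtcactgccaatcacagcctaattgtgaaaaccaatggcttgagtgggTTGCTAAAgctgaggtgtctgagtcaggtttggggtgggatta
Ly6c2: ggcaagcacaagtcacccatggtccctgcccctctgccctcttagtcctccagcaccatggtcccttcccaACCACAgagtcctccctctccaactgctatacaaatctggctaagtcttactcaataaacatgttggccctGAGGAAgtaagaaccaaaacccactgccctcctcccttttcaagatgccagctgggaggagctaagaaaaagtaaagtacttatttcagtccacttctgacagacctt
Cebpa: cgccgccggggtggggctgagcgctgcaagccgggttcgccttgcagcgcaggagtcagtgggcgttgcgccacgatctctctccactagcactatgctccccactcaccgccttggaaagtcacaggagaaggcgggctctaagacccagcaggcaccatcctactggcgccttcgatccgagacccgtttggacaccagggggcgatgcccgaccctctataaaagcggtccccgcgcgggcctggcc
Tlr2: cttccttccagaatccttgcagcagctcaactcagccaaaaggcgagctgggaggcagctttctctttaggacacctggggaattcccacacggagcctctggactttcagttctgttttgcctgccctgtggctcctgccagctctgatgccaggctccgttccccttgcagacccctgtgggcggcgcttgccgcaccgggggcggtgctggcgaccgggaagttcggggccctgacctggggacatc
Mpo: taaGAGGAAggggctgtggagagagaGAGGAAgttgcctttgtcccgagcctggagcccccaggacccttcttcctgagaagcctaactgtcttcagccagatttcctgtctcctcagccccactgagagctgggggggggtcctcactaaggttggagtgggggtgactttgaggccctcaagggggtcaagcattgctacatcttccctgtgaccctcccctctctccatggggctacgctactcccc

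The PU.1 letters occur in the Itgam sequence at positions -84 and -15 before the start, in Cd68 at -225, in Ly6c2 at -108 and in Mpo at -247 and -224. The C/EBP letters occur in Cd68 at -43, and the Runx letters in Cybb at -103 and in Ly6c2 at -179. Neither Itgax nor the 2 open promoters shown, Cebpa and Tlr2, hold any of the 3 sets in this window. Among the other starts with a strong peak in every library, Csf2ra holds the PU.1 letters and Gfi1 the C/EBP letters. Klf4 and Fcgr2b hold none of the sets. The 33 members with an entry have 36 promoters, of which 16 hold the PU.1 letters, 9 the C/EBP letters and 7 the Runx letters. Among the 21045 promoters of the table, 22.5% hold the PU.1 letters, 9.18% the C/EBP letters and 12.2% the Runx letters. The promoters also differ in base composition, and the median of the table is 55.6% GC with 10 CpG. GC content is 66.4% with 22 CpG in Cebpa and 62.8% with 11 CpG in Tlr2. Among the other starts open in every library it is 64.8% in Csf2ra, 59.2% in Gfi1, 74% in Klf4 and 45.2% in Fcgr2b. Of the starts strong in pre-pro-B alone, Itgam has 49.6% with 6 CpG, Cybb 34% with 1, Itgax and Ly6c2 50% each, and Cd68 49.2%. The closed Mpo start has 59.2% with 2 CpG. A match describes letters only.

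Of these 33 starts, 13 had a strong peak within 1 kb in 8 of 8 pre-pro-B libraries, 7 in 8 of 8 pro-B and 9 in 8 of 8 small pre-B libraries, or 39.4%, 21.2% and 27.3%. Over the 17274 genes with an annotated start, the shares were 51.1%, 52.7% and 51.3%. The starts of Itgam, Itgax, Cd68, Cybb and Ly6c2 had a strong peak in 8, 0 and 0 libraries. Cx3cr1, the fractalkine receptor of monocytes and microglia, was close to these with 7, 0 and 0, and Fcer1g, the signalling chain shared by several Fc receptors, had 8, 2 and 1. Ncf1, the p47 organiser subunit of the NADPH oxidase, had 8, 3 and 8. Starts open in all 24 libraries were those of Csf2ra, Cebpa, Gfi1, Klf4, Fcgr2b and Tlr2, and 11 starts had no strong peak in any library. The starts of Elane, Prtn3 and Ccr2 had no peak even in the deposited lists.

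The deposited lists, which hold the weaker peaks too, show more starts open in pre-pro-B libraries, and in later ones for some of the starts just named. With the deposited lists, 21 of 33 starts had a peak in 8 of 8 pre-pro-B, 13 in 8 of 8 pro-B and 9 in 8 of 8 small pre-B libraries, or 63.6%, 39.4% and 27.3%, against 58.1%, 59.2% and 55.5% of all genes. Of the 5 starts with strong peaks in pre-pro-B libraries alone, those of Itgax and Cybb had 8, 0 and 0 in the deposited lists as well, while that of Itgam had 8, 5 and 0, and those of Ly6c2 and Cd68 had 8, 0 and 4. The Cx3cr1 start had a deposited peak in 8, 8 and 0 libraries and the Fcer1g start in 8, 8 and 6. Mpo had a deposited start peak in 3 Mki67-/- libraries and 1 WT library of pre-pro-B cells and in no later library. Lyz2, lysozyme of macrophages and neutrophils, had one in 8, 8 and 1 libraries, and Ltf, lactoferrin of the secondary granules, in 7, 7 and 0. For Csf3r, the G-CSF receptor, the numbers were 8, 3 and 0, and for Mmp8, neutrophil collagenase, 8, 1 and 1.

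**Figure D1:**
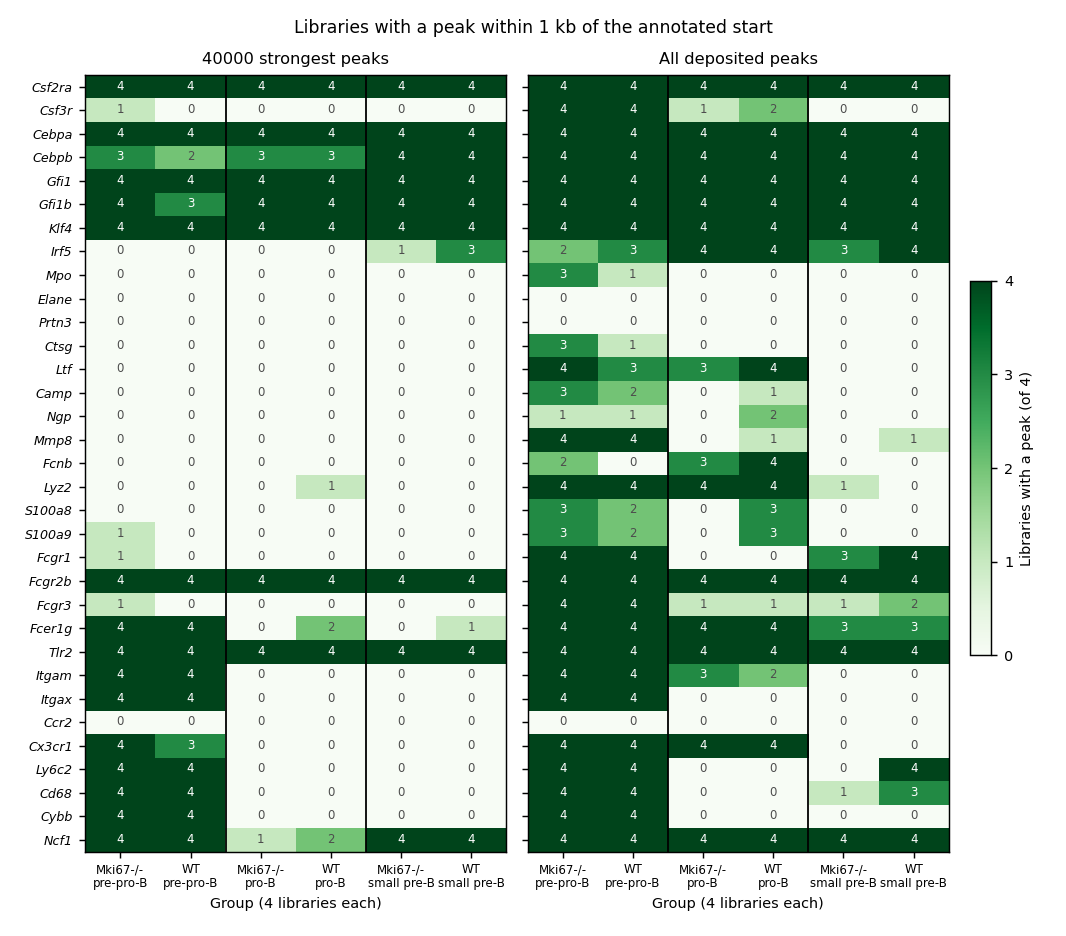
Number of libraries (of 4 in each group, colour and digit) with a peak within 1 kb of the annotated start of each of 33 myeloid genes, among the 40000 strongest peaks (left) and in the deposited lists (right). Itgam, Itgax, Ly6c2, Cd68 and Cybb show 4 of 4 in both pre-pro-B groups and 0 in every later group on the left, while Cebpa, Gfi1 and Klf4 show 4 throughout.

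Counted as distinct strong peaks per library, the member windows held 95.1 ± 3.87 in pre-pro-B, then 81.25 ± 2.92 in pro-B and then 92.25 ± 3.28 in small pre-B libraries (SD, n = 8 each), out of 40000 in each. The pro-B values of 79 to 87 lay below the 90 to 101 of pre-pro-B libraries, and the lowest small pre-B value of 87 met the highest pro-B value. The deposited lists, which differ in length, gave 199.25 ± 17.9, 149 ± 7.75 and 141.25 ± 13.1 instead, so small pre-B was then lowest. No test is given for these sums, because the members were chosen with earlier results known.

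Between pro-B and pre-pro-B libraries, 5 of the 43 genes rose and 12 fell in number of strong peaks (two-sided exact permutation test with stage exchanged within genotype, Benjamini-Hochberg over all genes tested). Of the 40 members tested these are 12.5% and 30.0%, against 24.8% higher and 21.1% lower among the 16218 genes tested. The genes that rose were Gfi1b, Fcgr3, Cd68, Csf2ra and Tyrobp. Those that fell were Itgam, Itgax, Csf3r, Fcnb, Fcgr1, Cx3cr1, Ncf4, Elane, Cd14, Cybb, Fcgr2b and Adgre1. Without the 3 libraries that stood apart, 6 rose and 12 fell. The split depends on how peaks are counted: the deposited lists gave 4 higher and 16 lower (all genes 21.2% and 25.6%), entries left unmerged 2 and 31 (7.04% and 68.6%), and bases covered 2 and 30 (11.9% and 66.7%). Ctsg, Camp and S100a8 had too few strong peaks to be tested.

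Between small pre-B and pro-B libraries, 12 genes rose and 5 fell, which is 32.4% and 13.5% of the 37 members tested, against 11.4% and 11.9% of the 15744 genes tested. Cebpb, Csf1r, Fcgr2b, Itgax, Tlr4, Adgre1, Irf5, Ly6c2, Csf3r, Itgam, Ncf4 and Cd14 rose, and Tyrobp, Ccr2, Ltf, Fcgr3 and Cd68 fell. Without the 3 libraries that stood apart, 12 rose and 3 fell. The falls of Ccr2, Cd68 and Ltf did not pass without them (adjusted p = 0.085, 0.0741 and 0.0509), Mpo passed instead with a difference of -0.875 (adjusted p = 0.0331), and 2 of the 5 falls, those of Tyrobp and Fcgr3, remained. The deposited lists gave 5 higher and 11 lower (6.11% and 16.6% of all genes), and bases covered gave 15 and 10 (13.4% and 30.2%). Both steps use the same pro-B libraries, so a high or low pro-B value enters both with opposite sign. The median difference was 0.25 peaks over the 37 members tested and 0 over the genes tested.

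Between small pre-B and pre-pro-B libraries, 9 genes rose and 12 fell, or 23.1% and 30.8% of the 39 members tested, against 24.2% and 21% of the 16051 genes tested. Gfi1b, Csf1r, Irf5, Cebpb, Ly6c2, Tlr4, Prtn3, Csf2ra and Cd68 rose, and Elane, Fcnb, Csf3r, Cx3cr1, Cybb, Fcgr1, Itgax, Ltf, Itgam, Ccr2, Lyz2 and Fcer1g fell. The deposited lists gave 3 higher and 18 lower (14.4% and 30.0% of all genes), entries left unmerged 1 and 25 (5.82% and 70.4%), and bases covered 3 and 24 (8.75% and 73.4%). Without the 3 libraries that stood apart, 8 rose and 11 fell. The calls of Lyz2, Fcer1g, Itgam and Cd68 did not pass then (adjusted p = 0.0586, 0.0987, 0.101 and 0.0643), and falls of Mpo and Ncf1 did (adjusted p = 0.0055 and 0.0405).

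**Figure D2:**
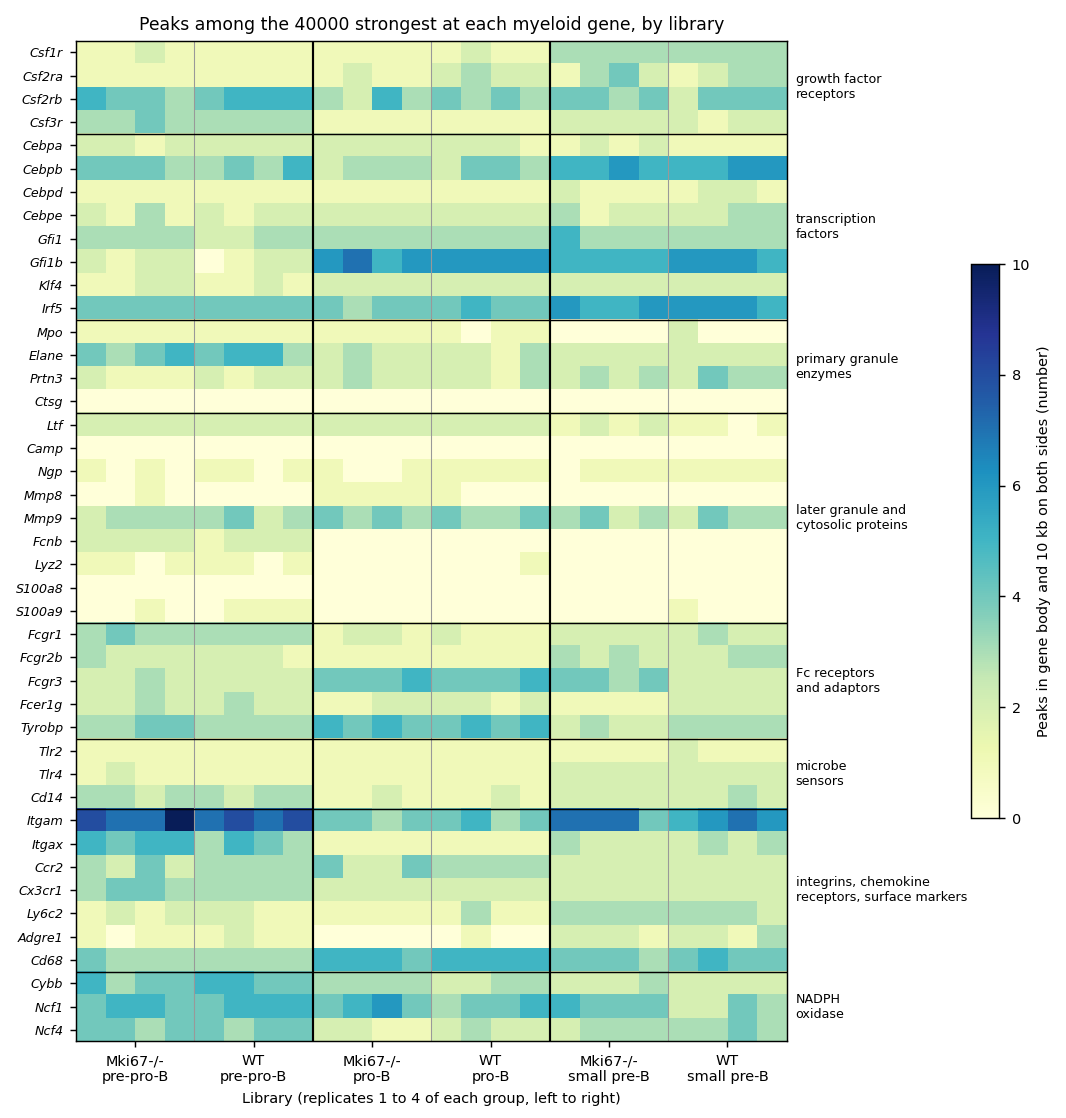
Number of strong peaks (colour, 0 to 10) in the window of each of the 43 genes (rows, by class) in each of the 24 libraries (columns, by stage, Mki67-/- left of WT). The rows of Itgam, Itgax and Csf3r are darker in the pre-pro-B columns than in the pro-B columns, the row of Gfi1b is darker from pro-B on, and Ctsg, Camp and S100a8 are at 0 throughout.

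The receptors for colony-stimulating factors did not move together. Windows differ in length, so peak numbers are compared between stages and not between genes. Csf3r had 3, 3, 4 and 3 strong peaks in the Mki67-/- and 3 in each of the WT pre-pro-B libraries, 1 in all 8 pro-B libraries, 2 in each Mki67-/- small pre-B library, and 2, 1, 2 and 2 in the WT small pre-B libraries. Its pre-pro-B values lay above those of every later library, and it fell by 2.125 peaks in pro-B relative to pre-pro-B (adjusted p = 0.00164) and rose by 0.875 in small pre-B relative to pro-B (adjusted p = 0.0129). Csf1r, the M-CSF receptor of macrophages, had 3 strong peaks in all 8 small pre-B libraries, against 1 or 2 in every pro-B and every pre-pro-B library, a rise of 1.875 over either stage (adjusted p = 0.00467 over pro-B and 0.00179 over pre-pro-B). Its deposited peaks ran the other way at the first stage, with a median of 6 in pre-pro-B, then 2.5 in pro-B and then 3 in small pre-B libraries, so that the deposited lists gave a fall of 2.5 in small pre-B relative to pre-pro-B (adjusted p = 0.00939). Csf2ra, the alpha chain of the GM-CSF receptor, had 1 strong peak in all pre-pro-B libraries, 1 to 3 in pro-B (median 2) and 1 to 4 in small pre-B libraries (median 2.5), and rose in pro-B relative to pre-pro-B by 0.75 (adjusted p = 0.032). Csf2rb, the beta chain shared by the GM-CSF, interleukin-3 and interleukin-5 receptors, had medians of 4.5, 3 and 4 and passed no test on these counts. Among the 20000 strongest peaks Csf2rb fell in both pro-B and small pre-B relative to pre-pro-B.

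Among the 40000 strongest peaks, 1 of the 8 transcription factor genes rose and 0 fell in pro-B relative to pre-pro-B, and 2 rose and 0 fell in small pre-B relative to pro-B. All 8 were tested, and the shares over all genes were 24.8% higher and 21.1% lower at the first step and 11.4% and 11.9% at the second. Other peak sets gave falls too. At the first step the 20000 strongest peaks gave rises of Cebpe, Gfi1 and Gfi1b and falls of Cebpd and Irf5 (all genes 19.2% higher and 18.4% lower), and the deposited lists gave rises of Gfi1b and Irf5 and a fall of Klf4 (21.2% and 25.6%). Gfi1b, a repressor known from red cell and platelet precursors, had 2, 1, 2 and 2 strong peaks in Mki67-/- and 0, 1, 2 and 2 in WT pre-pro-B libraries. In pro-B it had 6, 7, 5 and 6 in Mki67-/- and 6 in each WT library, and in small pre-B 5 in each Mki67-/- library and 6, 6, 6 and 5 in WT libraries. Its pre-pro-B values lay below all 16 later ones, and it rose by 4.5 peaks in pro-B relative to pre-pro-B (adjusted p = 0.00164). Cebpb, a C/EBP factor of emergency granulopoiesis and macrophages, had medians of 4, 3 and 5 strong peaks and rose by 2.375 in small pre-B relative to pro-B (adjusted p = 0.00467), with small pre-B values of 5 or 6 against 2 to 4 in pro-B libraries. Its deposited peaks had medians of 7, 7.5 and 7, and the deposited lists gave a difference of -0.375 there. Irf5, which relays Toll-like receptor signals to cytokine genes, had 4 strong peaks in every pre-pro-B library, 3 to 5 in pro-B (median 4) and 5 or 6 in small pre-B libraries (median 6), and rose by 1.625 over pro-B (adjusted p = 0.00831) and by 1.625 over pre-pro-B (adjusted p = 0.00179). The deposited lists kept the rise over pre-pro-B. Unmerged entries gave a fall of Irf5 instead (-3.125, adjusted p = 0.000999), as did bases covered (-513, adjusted p = 0.000782), where 70.4% and 73.4% of all genes fell.

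The other 5 factor genes passed no stage test among the 40000 strongest peaks. Cebpa had 1 or 2 strong peaks at each stage. Cebpe, needed for the later steps of granulocyte maturation, had a median of 2 at each stage and fell by 1.125 in the deposited lists in small pre-B relative to pro-B (adjusted p = 0.0283). Cebpd, a C/EBP factor induced in inflammation, had a median of 1. Gfi1, a repressor used in both granulocyte and lymphoid precursors, had a median of 3 at each stage. Klf4, a factor of monocyte differentiation, had medians of 1, 2 and 2 (adjusted p = 0.0616 between pro-B and pre-pro-B).

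Of the 13 granule and cytosolic protein genes, 10 could be tested between pro-B and pre-pro-B and 7 between small pre-B and pro-B, and none of those rose, against 24.8% and 11.4% of all genes. Ctsg, Camp and S100a8 had no strong peak in any library and were tested at neither step, and Fcnb, Lyz2 and S100a9 had too few for the second. Of the 4 primary granule enzymes, Elane, neutrophil elastase, had 4, 3, 4 and 5 strong peaks in Mki67-/- and 4, 5, 5 and 3 in WT pre-pro-B libraries, 2, 3, 2 and 2 in Mki67-/- and 2, 2, 1 and 3 in WT pro-B libraries, and 2 in all small pre-B libraries. It fell by 2 in pro-B relative to pre-pro-B (adjusted p = 0.00553), and 1 pro-B library of each genotype had 3, the lowest pre-pro-B value. Prtn3, proteinase 3, shares part of its window with Elane and had medians of 1.5, 2 and 3, with a rise of 1.25 in small pre-B relative to pre-pro-B (adjusted p = 0.0137). The Prtn3 window also holds Cfd and Plppr3. With peaks at other genes' starts not counted the difference was 0.625 and did not pass (adjusted p = 0.0612). The deposited lists gave a difference of 0 for Prtn3, while the 20000 strongest peaks kept its rise. Mpo had medians of 1, 1 and 0 and passed no test on these counts with all libraries included, and Ctsg, cathepsin G, was not tested on them. In the deposited lists Mpo had medians of 5, 1.5 and 1, and Ctsg 2, 1 and 0. Mpo, Elane and Ctsg all fell there in small pre-B relative to pre-pro-B (all genes 30.0% lower and 14.4% higher).

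Of the 9 later granule and cytosolic proteins, Fcnb, the lectin ficolin B, had 2 strong peaks in each Mki67-/- and 1, 2, 2 and 2 in the WT pre-pro-B libraries, and 0 in all 16 later libraries, a fall of 1.875 (adjusted p = 0.00164). The deposited lists gave medians of 3, 3 and 0 for Fcnb, so its weaker pro-B peaks were present but not among the strong ones. Ltf had 2 strong peaks in every pre-pro-B and pro-B library and 0 to 2 in small pre-B libraries (median 1), a fall of 0.875 relative to pro-B (adjusted p = 0.0302), and deposited medians of 7, 3 and 2. Lyz2 had medians of 1, 0 and 0 and fell by 0.75 in small pre-B relative to pre-pro-B (adjusted p = 0.0245, and 0.0586 without the 3 libraries that stood apart). S100a9, a calprotectin subunit and partner of S100a8, Mmp8 and Ngp, a neutrophil granule protein, had 0 or 1 in every library, and Mmp9, a gelatinase, had 2 to 4 in every library, and none of these passed a test on these counts. Summed over the 9 genes, strong peaks numbered 8.75 ± 1.39 in pre-pro-B, then 7 ± 0.926 in pro-B and then 5.13 ± 1.13 in small pre-B libraries (SD, n = 8 each), and deposited peaks averaged 31.4, 17.9 and 9.25. In the deposited lists 4 of the 9 fell and 0 rose at each step (all genes 25.6% lower and 21.2% higher at the first, 16.6% and 6.11% at the second), namely Ltf, Mmp8, Lyz2 and S100a9 in pro-B relative to pre-pro-B and Ltf, Mmp8, Fcnb and S100a8 in small pre-B relative to pro-B. Camp, a cathelicidin, had at most 1 deposited peak in any library.

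**Figure D3:**
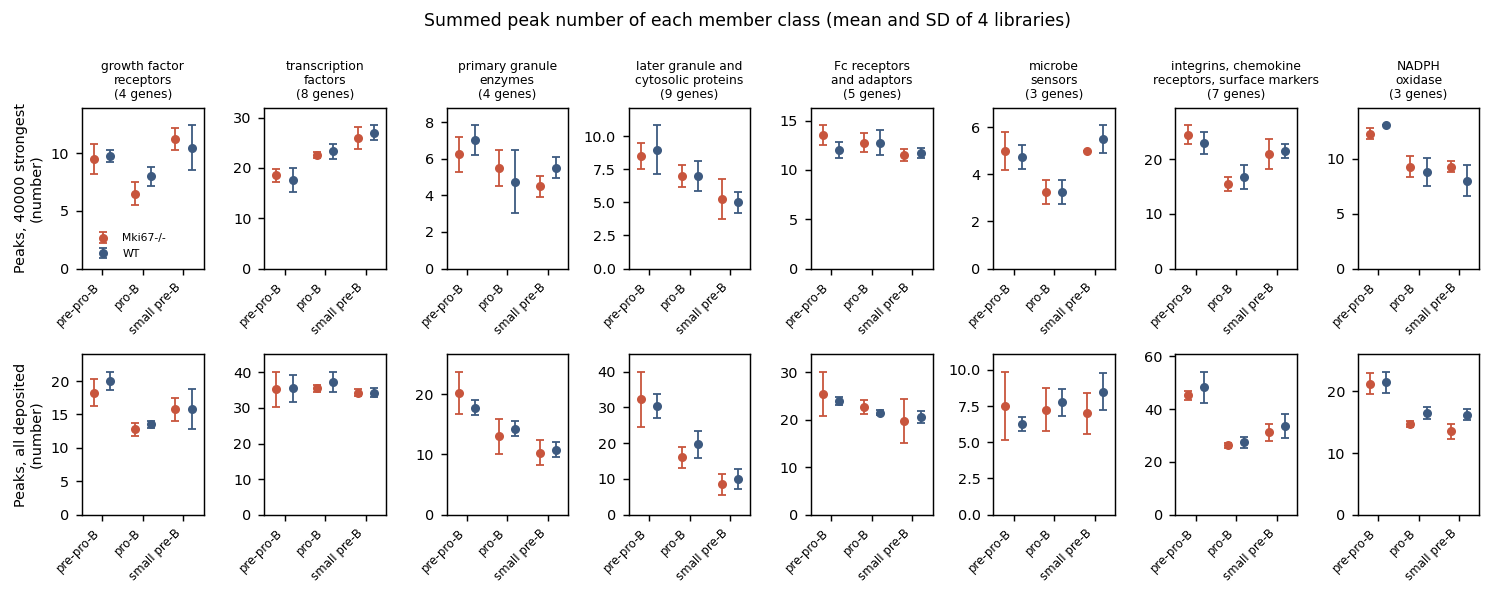
Peak number summed over the genes of each of the 8 classes, for the 40000 strongest peaks (top) and the deposited lists (bottom), at each stage. Points are means and bars the SD of 4 libraries, Mki67-/- in red and WT in blue. The 7 integrin, chemokine receptor and surface marker genes are lowest in pro-B in the top row, and the 9 later granule and cytosolic genes step down from stage to stage in the bottom row.

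The 5 Fc receptor and adaptor genes split among strong peaks, with 2 rises and 2 falls in pro-B relative to pre-pro-B (all genes 24.8% higher and 21.1% lower). The deposited lists gave 0 rises and 1 fall there, that of Fcgr2b (all genes 21.2% and 25.6%). In them neither Fcgr1 (difference -0.875, adjusted p = 0.109) nor Fcgr3 (difference 0.625, adjusted p = 0.542) passed at this step. Fcgr1, the high-affinity IgG receptor of monocytes and macrophages, had 3 or 4 strong peaks in pre-pro-B libraries, 1 or 2 in pro-B and 2 or 3 in small pre-B libraries, and fell by 1.75 in pro-B relative to pre-pro-B (adjusted p = 0.00164). Fcgr2b, the inhibitory IgG receptor that B cells also use, had medians of 2, 1 and 2.5 and rose by 1.5 in small pre-B relative to pro-B (adjusted p = 0.00467), where all 8 pro-B libraries had 1. Fcgr3, a low-affinity activating IgG receptor, had 4, 4, 4 and 5 strong peaks in Mki67-/- and 4, 4, 4 and 5 in WT pro-B libraries, against 2, 2, 3 and 2 in Mki67-/- and 2 in each WT pre-pro-B library. The pro-B values lay above all pre-pro-B values, a rise of 2.125 (adjusted p = 0.00164). In small pre-B it had 4, 4, 3 and 4 in Mki67-/- and 2 in each WT library, a fall of 1.375 relative to pro-B (adjusted p = 0.0379). Among strong peaks the small pre-B genotypes did not overlap at Fcgr3, with Mki67-/- higher, as at 1.35% of all genes. In the deposited lists, on which genotype was tested, they overlapped, with 5, 8, 5 and 9 peaks in Mki67-/- against 5, 7, 4 and 5 in WT small pre-B libraries.

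Tyrobp, the DAP12 adaptor of activating receptors, had medians of 3, 4.5 and 3 strong peaks, a rise of 1.25 in pro-B relative to pre-pro-B (adjusted p = 0.00689) and a fall of 1.875 in small pre-B relative to pro-B (adjusted p = 0.00467). Its window also holds the starts of Hcst and Nfkbid, and with peaks at other genes' starts not counted neither call remained, at a difference of 0.25 for the first step (adjusted p = 0.832) and -0.5 for the second (adjusted p = 0.234). Counted in the gene body alone or as unmerged entries, Tyrobp fell at the first step, by 0.875 (adjusted p = 0.00713) and by 5 (adjusted p = 0.001). Fcer1g had medians of 2, 2 and 1.5 and fell by 0.75 in small pre-B relative to pre-pro-B (adjusted p = 0.0326, and 0.0987 without the 3 libraries that stood apart). In small pre-B it had 1 strong peak in each Mki67-/- and 2 in each WT library. The genotypes thus did not overlap there, with Mki67-/- lower, as at 0.677% of all genes. In the deposited lists they overlapped, with 2 or 3 peaks in each small pre-B library. Among the microbe sensors, Cd14, the co-receptor for lipopolysaccharide, had medians of 3, 1 and 2, with a fall of 1.5 in pro-B relative to pre-pro-B (adjusted p = 0.00553) and a rise of 0.875 in small pre-B relative to pro-B (adjusted p = 0.0379). The deposited lists gave a difference of 0.875 at the first step for Cd14. Tlr4, the lipopolysaccharide receptor, had 2 strong peaks in all small pre-B libraries, against 1 in all pro-B libraries (difference 1, adjusted p = 0.00467). Tlr2 had a median of 1 at each stage and passed no test on these counts.

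The integrin, chemokine receptor and surface marker genes had 4 falls and 1 rise among 7 between pro-B and pre-pro-B (all genes 21.1% lower and 24.8% higher), and 5 falls and 0 rises in the deposited lists (25.6% and 21.2%). Itgam had 8, 7, 7 and 10 strong peaks in Mki67-/- and 7, 8, 7 and 8 in WT pre-pro-B libraries. In pro-B it had 4, 4, 3 and 4 in Mki67-/- and 4, 5, 3 and 4 in WT libraries, and in small pre-B 7, 7, 7 and 4 in Mki67-/- and 5, 6, 7 and 6 in WT libraries. Every pre-pro-B library lay above every pro-B library, while small pre-B values reached both. Itgam fell by 3.875 in pro-B relative to pre-pro-B (adjusted p = 0.00164) and rose by 2.25 in small pre-B relative to pro-B (adjusted p = 0.0195). Itgax had 5, 4, 5 and 5 in Mki67-/- and 3, 5, 4 and 3 in WT pre-pro-B libraries, 1 in all 8 pro-B libraries, and 3, 2, 2 and 2 in Mki67-/- and 2, 3, 2 and 3 in WT small pre-B libraries. The pro-B values lay below all others, with a fall of 3.25 relative to pre-pro-B (adjusted p = 0.00164) and a rise of 1.375 in small pre-B relative to pro-B (adjusted p = 0.00467). Among the 20000 strongest peaks Itgax differed by 0 at both steps, while both calls remained in the deposited lists.

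Cx3cr1 had 3 or 4 strong peaks in pre-pro-B libraries and 2 in all 16 later ones, a fall of 1.25 (adjusted p = 0.00164). Ccr2, the chemokine receptor that brings monocytes out of the marrow, had a median of 3 in pre-pro-B and in pro-B and 2 in all small pre-B libraries, a fall of 1 relative to pro-B (adjusted p = 0.0302). Adgre1, the macrophage marker F4/80, had medians of 1, 0 and 2 and rose by 1.75 in small pre-B relative to pro-B (adjusted p = 0.00831). Ly6c2 had medians of 1.5, 1 and 3 and rose by 1.625 in small pre-B relative to pro-B (adjusted p = 0.0129), although its start had no strong peak there and a weaker deposited one in 4 libraries, all WT. Relative to pre-pro-B, Ly6c2 rose by 1.375 among strong peaks (adjusted p = 0.00464) and differed by -0.875 in the deposited lists. Counted in the gene body alone, Ly6c2 fell there, with a difference of -1 (adjusted p = 0.00217). Cd68 rose by 1.75 in its window in pro-B relative to pre-pro-B (adjusted p = 0.00308), while its own start closed. That window also holds Eif4a1, Mpdu1, Senp3 and Sox15, and with peaks at other genes' starts not counted Cd68 differed by -1 instead (adjusted p = 0.00155). In all, 17 of the 43 windows hold another protein-coding gene.

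Cybb had medians of 4, 3 and 2 strong peaks and fell by 1.5 in pro-B relative to pre-pro-B (adjusted p = 0.00587) and by 2.125 in small pre-B relative to pre-pro-B (adjusted p = 0.00334). Its deposited peaks numbered 9 to 13 in pre-pro-B libraries, 3 in all pro-B libraries and 3 to 7 in small pre-B libraries. Ncf4, the p40 subunit of the same oxidase, had medians of 4, 2 and 3, with a fall of 1.875 in pro-B relative to pre-pro-B (adjusted p = 0.00308) and a rise of 1.125 in small pre-B relative to pro-B (adjusted p = 0.0272). Ncf1 had medians of 5, 4 and 4 strong peaks and passed no test on them. Its deposited peaks ran the other way, with 7 to 11 in pro-B (median 9) against 5 to 7 in pre-pro-B and in small pre-B libraries (median 6 in each), a rise of 3 in pro-B relative to pre-pro-B (adjusted p = 0.00207) and a fall of 3.125 in small pre-B relative to pro-B (adjusted p = 0.0106). Among the 20000 strongest peaks it fell by 1.625 at the first step and rose by 1.875 at the second (adjusted p = 0.00191 and 0.00408).

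**Figure D4:**
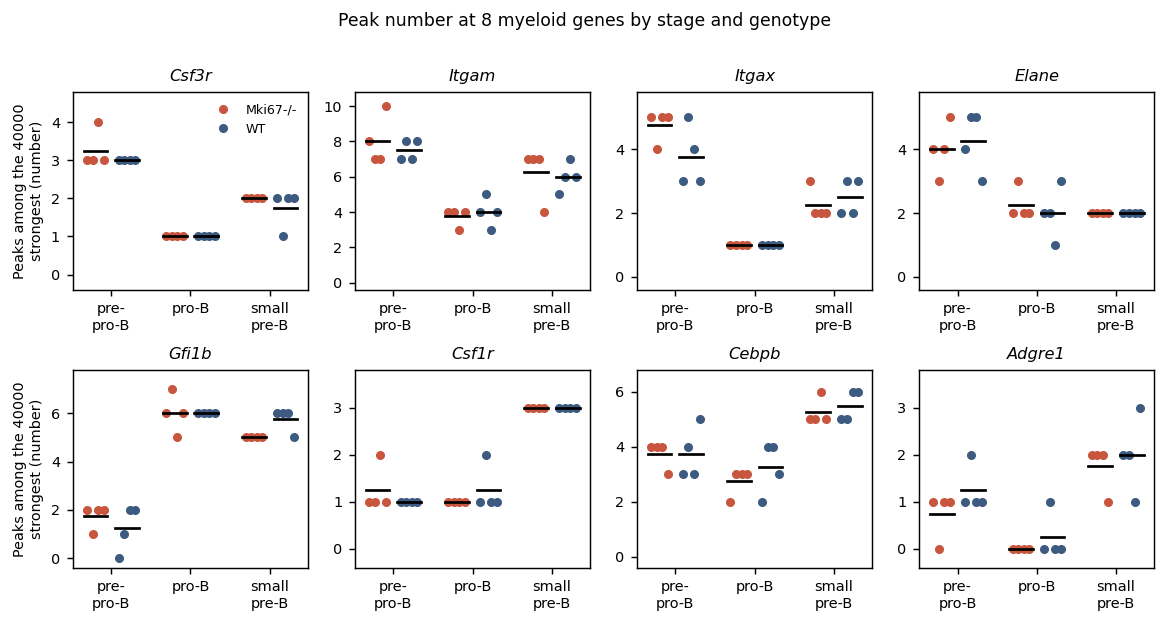
Number of strong peaks (vertical axis) in the windows of 8 genes in each library (points, Mki67-/- in red left of WT in blue) at each stage, with group means as bars. Csf3r, Itgam, Itgax and Elane are highest in pre-pro-B, Gfi1b is lowest there, and Csf1r, Cebpb and Adgre1 are highest in small pre-B libraries.

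Single regions show where these differences lie. Of the 324 member regions, 173 had a strong peak in some library and 28 had one in all 24 libraries. Over all 159336 regions these numbers were 76699 and 16778. The 28 member regions include a site inside Ncf4 (chr15:78244423-78245520), with median ranks of 2425.5, 626 and 332.5 at the 3 stages, and the Csf2ra start (chr19:61225760-61228042), with 4496.5, 732 and 403.5. A site inside Gfi1 (chr5:107717428-107718459) had median ranks of 13019.5, 4617.5 and 1883, and a site at -3791 bp from the Itgam start (chr7:128058300-128059399) had 7917.5, 19000.5 and 8319.5. A lower rank is a stronger peak within its own library, and these ranks were not tested. Between pro-B and pre-pro-B, 22 regions rose and 40 fell of 123 tested (all regions 21.1% and 23.3%). Member starts account for 1 rise and 7 falls of 18 tested, sites between genes for 9 and 19 of 46, and sites inside member genes for 8 and 11 of 43. Between small pre-B and pro-B, 17 rose and 9 fell of 104 (all regions 9.58% and 11.8%), with 10 of the rises between genes, 7 inside member genes and 0 at member starts. Between small pre-B and pre-pro-B, 22 rose and 32 fell of 127 (all regions 18% and 22.8%).

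Complete switches were counted as a strong peak in 8 of 8 libraries of one stage and 0 of 8 of the neighbouring one. Between pro-B and pre-pro-B, 16 member regions in 12 windows appeared, or 13% of those tested (14.2% of all regions), and 23 in 15 windows disappeared, or 18.7% (14.9% of all regions). Of the 23, 13 had no deposited pro-B peak at all, 19 were in 0 of 8 and none was back in 8 of 8 small pre-B libraries. Of the 16, 5 had no deposited peak in any pre-pro-B library and 3 had a weak one in all 8, and 9 stayed in 8 of 8 small pre-B libraries. Between small pre-B and pro-B, 3 appeared (2.88%, all regions 4.63%) and 3 disappeared (2.88%, all regions 5.05%). In the deposited lists, 28 of the 239 member regions with a peak in at least 4 libraries had one in all 8 pre-pro-B libraries and in none of the other 16 (all regions 10.1%). For pro-B the number was 2 of the 239 (all regions 1.53%) and for small pre-B 7 of the 239 (all regions 0.794%).

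At Itgam the strong peaks moved along the gene. The start at chr7:128062335-128062841 and sites inside the gene at chr7:128079924-128080610 and chr7:128081031-128081800, which are 17626 and 18775 bp past the start, had a strong peak in 8 of 8 pre-pro-B libraries and in none later. The first of these inner sites had no deposited peak in any later library either. Sites 36725 bp (chr7:128099104-128099627) and 38370 bp (chr7:128100687-128101334) past the start had the reverse pattern, with 0 of 8 pre-pro-B, 8 of 8 pro-B and 8 of 8 small pre-B libraries. The site at 38370 bp ranked high, with a median rank of 7836.5 in small pre-B and 6943 in pro-B libraries, and had a deposited peak in 1 pre-pro-B library. A site at 42988 bp (chr7:128105029-128106229) was strong in 8, 0 and 5 libraries. Itgax lies downstream of Itgam, and its start region chr7:128128672-128129695 was strong in 8, 0 and 0 libraries.

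At Gfi1b the complete gains lay outside the gene body. A site 15950 bp past the start (chr2:28605549-28606517) was strong in 0 pre-pro-B, 8 pro-B and 8 small pre-B libraries, with a median rank of 2913.5 in small pre-B and 2584.5 in pro-B libraries, and had a weaker deposited peak in 7 of 8 pre-pro-B libraries. A site at 22495 bp (chr2:28598944-28600032) had the same strong pattern and a weaker deposited peak in all 8 pre-pro-B libraries. A site at -8219 bp from the start (chr2:28629903-28630501) had no deposited peak in pre-pro-B libraries and a strong one in every later library. The Gfi1b start was strong in 7, 8 and 8 libraries.

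**Figure D5:**
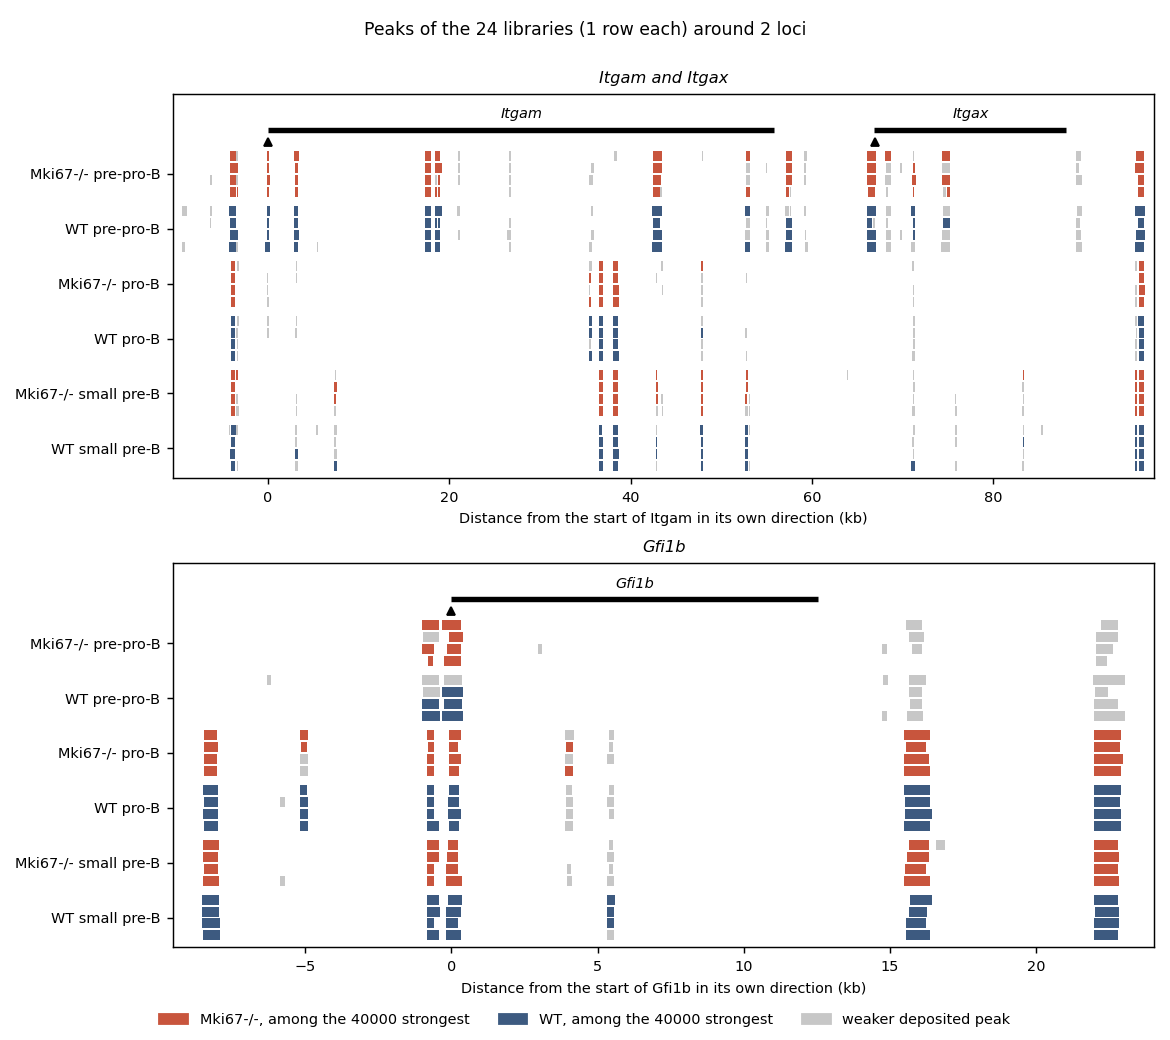
Peaks of each library (1 row each, Mki67-/- above WT at each stage) by distance in kb from the start of Itgam (top, with Itgax downstream) and of Gfi1b (bottom). Coloured blocks are among the 40000 strongest peaks, grey blocks are weaker deposited peaks, black bars are gene bodies and triangles starts. Itgam has strong peaks near 18 kb in pre-pro-B rows and near 37 and 38 kb in later rows, and Gfi1b has strong peaks near 16 and 22 kb only in later rows.

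The other switching regions of highest rank are given by their number of libraries with a strong peak at the 3 stages in order. The Cd68 start (chr11:69665704-69666572), a site at -2932 bp from the Ccr2 start (chr9:124098837-124099667) and a site 7868 bp past the Elane start (chr10:79893675-79894686) had 8, 0 and 0. A site in the Tyrobp window at the Hcst start (chr7:30419496-30420141) also had 8, 0 and 0. A site at -5603 bp from the Csf3r start (chr4:126018623-126019490) had 8, 0 and 7, with a median rank of 34282 in small pre-B and 15506 in pre-pro-B libraries. A site inside Fcgr3 (chr1:171050598-171051400) had 0, 8 and 5, and a site in the Mmp9 window (chr2:164938657-164939148) had 0, 8 and 8 but a deposited peak in all 24 libraries. The Ccr2 and Elane sites had no deposited peak in pro-B or small pre-B libraries.

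By genotype, tested on the deposited lists so that a global change would show, 0 of the 43 genes passed the adjusted exact permutation test across stages (0% of the 17598 genes tested). At an unadjusted p under 0.05, 0 were higher and 1 was lower in Mki67-/- libraries (all genes 1.15% and 3.93%). That gene was Ly6c2, with a difference of -1 peak (unadjusted p = 0.00204, adjusted p = 0.609). Its deposited peaks numbered 5, 4, 4 and 3 in Mki67-/- and 5, 4, 5 and 6 in WT pre-pro-B libraries, 2, 1, 3 and 3 in Mki67-/- and 3 in each WT pro-B library, and 3 in each Mki67-/- against 5, 4, 4 and 4 in WT small pre-B libraries. The genotypes separated in small pre-B and overlapped at the other stages.

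The next 5 genes by p were Ccr2 with a difference of 0.583, Adgre1 with -0.583, Cybb with -0.833, Itgax with -0.417 and Mmp9 with -0.583, with unadjusted p from 0.112 to 0.238 and an adjusted p of 1 for each. Within small pre-B alone, Ly6c2 (difference -1.25) and Cybb (difference -2.5) were lower in Mki67-/- libraries and no member was higher at an unadjusted p under 0.05 (all genes 0.844% and 0.483%). Both had 0.0286, the smallest p that 4 against 4 libraries allow, which cannot pass adjustment over all genes. Within pre-pro-B no member reached that p (all genes 0.183% higher and 0.519% lower), and none did within pro-B (all genes 0.594% and 0.706%). Cybb had 3, 4, 4 and 4 deposited peaks in Mki67-/- against 6, 7, 5 and 7 in WT small pre-B libraries, 3 in every pro-B library, and 12, 11, 12 and 9 in Mki67-/- against 12, 10, 9 and 13 in WT pre-pro-B libraries. Because every pro-B library had 3 Cybb peaks, the test of the genotype effect between these 2 stages repeats the small pre-B difference and p at Cybb. It is no separate evidence there. The genotype effect at Cybb differed between small pre-B and pro-B by -2.5 at an unadjusted p of 0.0286 (all genes 1.57% lower and 0.913% higher). No other member did so for that pair of stages, none did for pro-B against pre-pro-B (all genes 1.51% higher and 0.772% lower) or small pre-B against pre-pro-B (all genes 0.976% and 0.999%), and no gene passed adjustment. Mki67-/- small pre-B library 1 and WT small pre-B library 1, whose lists stand apart in opposite directions, had 3 and 6 Cybb peaks and 3 and 5 Ly6c2 peaks, and the part of list length in these differences was not tested.

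Of the 239 member regions tested by genotype across stages, 0 passed adjustment, and at an unadjusted p under 0.05 there were 0 higher and 2 lower in Mki67-/- libraries (all regions 0.741% and 1.10%). Regions with a deposited peak in all 4 libraries of one genotype and none of the other were few. In small pre-B, a site 1267 bp past the Ccr2 start (chr9:124103204-124103697) had 4 Mki67-/- and 0 WT libraries (all regions 0.787%). In the same stage, the Ly6c2 start (chr15:75111656-75112409) and a site inside Cybb (chrX:9452242-9453060) had 0 Mki67-/- and 4 WT libraries (all regions 0.569%), and both had a peak in all pre-pro-B and no pro-B library. In pre-pro-B, 1 site inside Csf1r had 0 Mki67-/- and 4 WT libraries (all regions 0.287%), and in pro-B there was none (all regions 0.379% higher and 0.406% lower).

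Lists of other genes were counted in the same stage tests, where 24.8% of all genes rose and 21.1% fell in pro-B relative to pre-pro-B and 11.4% rose and 11.9% fell in small pre-B relative to pro-B. Of 36 further myeloid genes, 6 rose and 6 fell of 32 tested at the first step, and 3 rose and 7 fell of 29 at the second. Their summed strong peaks ranged from 103 to 115 in pre-pro-B, then 97 to 115 in pro-B and then 98 to 107 in small pre-B libraries, so the 3 ranges overlapped. The lists that follow are given for the first step, and all their genes were tested except 1 erythroid gene. Of 16 early B-lineage genes, 12 rose and 0 fell, with sums of 38 to 46, 86 to 92 and 74 to 84. Of 16 T, natural killer and innate lymphoid genes, 2 rose and 8 fell, with sums of 38 to 47, 31 to 36 and 25 to 30, and Cd3e, Cd8a and Ncr1 had no strong peak in pro-B or small pre-B libraries and some in pre-pro-B libraries. Of 13 plasmacytoid dendritic genes, 4 rose and 6 fell, with sums of 42 to 52, 51 to 55 and 51 to 62. Of 12 erythroid and megakaryocyte genes, a lineage in which Gfi1b acts, 3 rose and 1 fell, with sums of 17 to 19, 16 to 23 and 18 to 20, and Gata1, its defining factor, had no strong peak in any library. Of 12 stem and multipotent progenitor genes, 3 rose and 4 fell, with sums of 34 to 42, 26 to 33 and 22 to 27. The summed peaks of the T, natural killer and stem cell lists were thus highest in pre-pro-B libraries. Of the 40 members tested at the first step, 12 fell and 5 rose, and the further myeloid genes had 6 falls and 6 rises. The part of other cell types in the myeloid values was not tested.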

How the data were processed

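ATAC-seq peak lists of 24 libraries from sorted bone marrow B-cell progenitors were used, 4 in each of 6 groups of stage and genotype, grouped by the sample titles. Per the submitters' processing notes, the authors used Trimmomatic, MACS2, deepTools, DiffBind and DESeq2 on mm10, with no versions. Each deposited list gives a score, which the authors' peak caller writes as a scaled −log10 q. Fold enrichment was deposited as the ratio of summit signal to local background. The deposited −log10 p and −log10 q test the same summit, and no list held a value below 2.00 for −log10 q beyond rounding. Peaks were called per library, so these values only ranked and filtered peaks within a list.

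Overlapping or touching entries were merged within a library on chromosomes 1 to 19 and X. Stages were compared on the 40000 peaks of highest −log10 q and genotypes on the deposited lists. Peaks were counted in each RefSeq gene body (GRCm38.p6) and 10 kb on both sides, and at starts within 1 kb. Regions joined the peaks of all libraries, with an overlap of 1 bp taken as present. Differences in mean peak number were tested for all genes or regions with a peak in at least 4 of the libraries compared. The tests were two-sided exact permutation tests, with stage exchanged within genotype (smallest p 0.000408) or genotype within stage (smallest p 5.83e-06, and 0.0286 within 1 stage). Adjusted p-values follow Benjamini and Hochberg over all genes or regions tested, with a threshold of 0.05. The tests were checked on simulated data. Python 3.11.15, numpy 2.4.6 and scipy 1.17.1 were used.

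The members, gene lists and tests were chosen with earlier results of these data known. Named were the members of smallest p per stage comparison (up to 14), the 6 of smallest p by genotype and the 12 switching regions of highest mean rank. Some Gfi1b, Itgam, Itgax and Cybb sites beyond these, the constantly open sites and the sites that switched by genotype were named after their values were seen. Other peak sets, windows and counting rules, leaving out libraries and a replicate block were tried as alternatives.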

Additional observations from a re-analysis of the deposited data

Results flagged for a closer look

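Within each group of 4 libraries, class sums, list lengths and numbers of member peaks, members with a peak and starts with a peak were screened. Of these sets of 4 values, 57 spread over at least 4. In 3 of the 57, a library lay far from the other 3 by Dixon's criterion, and chance flags about 1 in 20 sets. WT pre-pro-B library 2 had 26 strong peaks over the 7 integrin, chemokine receptor and surface marker genes, against 22 in each of the other 3. Mki67-/- small pre-B library 4 had 17 in the same class, against 22 to 23. WT pro-B library 4 had 33 deposited peaks over the 8 transcription factor genes, against 38 to 39.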

How the results depend on the processing

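Of 237 alternative values for counts and sums, 194 stayed within the limit for an unchanged result and 43 moved. Counts and sums cannot change sign. The 1428 values for named genes include refits that left out 1 library in turn, and genotype values that had no call to lose. Of them, 1308 kept direction and call, 91 lost the call and 29 changed sign. The cause of these changes was not tested. Counts are given as members higher and lower. With the 20000 strongest peaks, small pre-B against pro-B gave 7 and 3 (all genes 12% and 11%). The deposited lists gave 5 and 11 there (6.11% and 16.6%) and 3 higher for small pre-B against pre-pro-B (14.4%), and deposited peaks with a −log10 q of at least 10 gave 6 and 11 (5.62% and 15.1%), and 3 higher (14.8%). Gene bodies alone gave 3 higher for pro-B against pre-pro-B (18.9%), 4 and 1 for small pre-B against pro-B (8.23% and 9.74%), and 5 higher for small pre-B against pre-pro-B (17.9%). A flank of 50 kb gave 11 higher at the first step (33.3%) and 8 lower at the second (17.6%). Unmerged entries gave 2 and 31 for pro-B (7.04% and 68.6%) and 1 and 25 for small pre-B against pre-pro-B (5.82% and 70.4%), and bases covered gave 2 and 30 (11.9% and 66.7%), 10 lower at the second step (30.2%), and 3 and 24 (8.75% and 73.4%). Peaks at other genes' starts not counted, an alternative chosen after seeing the data, gave 3 higher at the first (24.7%) and 3 lower at the second step (12.7%). Without the 3 libraries that stood apart, the second step had 3 lower (10.9%).

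Replicate numbers did not pair the libraries: correlations of deviations ran from -0.0411 to 0.0319 across stages and from -0.366 to 0.133 across genotypes. With the replicate block, 0 members rose and 0 fell between small pre-B and pro-B, as did 0 of all 15744 genes tested; 0.00781 is the smallest p the block allows. The members called without it had unadjusted p from 0.00781 to 0.0313 and adjusted p from 0.0722 to 0.123 with it. Between small pre-B and pre-pro-B, 7 members fell with the block (16.6% of all genes). Leaving out 1 library in turn gave 4 to 7 higher and 12 to 13 lower, then 12 to 13 and 4 to 7, then 9 to 10 and 12 to 15, and 0 by genotype.

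Regions with the 20000 strongest peaks numbered 11 higher and 22 lower of 61 tested (all regions 21.8% and 22.3%), 11 and 5 of 53 (11.3% and 12.9%), and 11 and 16 of 62 (19.4% and 21.2%), and the deposited lists gave 19 lower of 163 at the second step (10.8%) and 62 lower of 216 between small pre-B and pre-pro-B (27.7%). Member peaks per library averaged 47.6, 37.5 and 44.5 among the 20000 strongest, and 199.25, 149 and 141.25 in the deposited lists.

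Signs changed as follows for the genes named in each comparison. Pro-B against pre-pro-B: Cx3cr1 0.25 with 20000 peaks, Fcnb 0.125, Cd68 -0.25 and Cd14 0.875 with deposited lists, Fcgr1 0.125 with 50 kb, and Cd68 -1 with gene bodies or without other starts, -0.75 with unmerged entries and -98.25 bases covered. Small pre-B against pro-B: Cebpb -0.375 with deposited lists and Ltf 0.625 with 50 kb. Small pre-B against pre-pro-B: Irf5 -0.125, Cybb 0.125, Cebpb -0.125 and Ly6c2 -0.625 with 20000 peaks, Csf1r -2.5, Cebpb -0.25 and Ly6c2 -0.875 with deposited lists, Csf1r -0.875 and Ly6c2 -0.75 above the q limit, Ly6c2 -1 with gene bodies, Prtn3 -0.5 with 50 kb, Irf5 -3.125 and Cebpb -2 with unmerged entries, and Irf5 -513 bases covered. Genotype: Ccr2 -0.0833, Cybb 0.0833 and Itgax 0.25 with 40000 peaks, and Ly6c2 0.0833 with 20000. For named genes, the sign changes that passed as calls at the first step were those of Cd68 with gene bodies and without other starts. Between small pre-B and pre-pro-B they were Irf5 with unmerged entries and bases covered, Csf1r with deposited lists and Ly6c2 with gene bodies. Among members not named in a comparison, calls of opposite sign for pro-B against pre-pro-B were Tyrobp -0.875 with gene bodies, -5 with unmerged entries and -843.375 bases covered. For small pre-B against pre-pro-B they were Ccr2 1 with gene bodies and Cd68 -1 with gene bodies, -2.125 with unmerged entries, -638.5 bases covered and -0.75 without other starts. The calls kept with the 20000 strongest, deposited and q-limited peaks were, at the first step, Gfi1b higher and Csf3r and Itgam lower, at the second Adgre1 higher and Ltf lower, and between small pre-B and pre-pro-B Gfi1b higher and Csf3r, Ltf, Itgam and Ccr2 lower, Ccr2 with the exception of gene bodies given above. Those are 1 of 5 rises and 2 of 12 falls at the first step, and 1 of 12 rises and 1 of 5 falls at the second. Between small pre-B and pre-pro-B they are 1 of 9 rises and 4 of 12 falls. Only peak calls were used, so a site below a library's calling limit counts as closed.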

Other observations

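A set of member sites was strong at the first and last stage and weak between them, in a pattern chosen after its values were seen. Of the 44 member regions with a strong peak in at least 7 of 8 pre-pro-B and 7 of 8 small pre-B libraries, 5 had one in at most 1 of 8 pro-B libraries, which is 11.4% against 5.47% of all 20762 such regions. They lie at -3405 bp from the start of Cebpb, -7166 bp from that of Fcgr1, -5603 bp from that of Csf3r, -2221 bp from that of Irf5, and in the Cd14 window. In the deposited lists these sites had a pro-B peak in 8, 8, 3, 5 and 8 libraries, so each was weaker in pro-B and not absent from every library.

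Itgam and Itgax lie on the same chromosome as Mki67, 7.57 and 7.54 Mb away. Itgam had a genotype difference of 0 across stages, and Itgax one of -0.417 with an adjusted p of 1.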
